A study of Mus musculus with 6 samples.

Results

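The genes described here are 44 chemokines, cytokines, cytokine receptors and adhesion molecules, followed in bile duct cells of injured mouse livers that had or had not lost the transcription factor Klf5. The members were taken by symbol from the deposited table of 24404 genes, and all 44 were found in it. Of these, 38 were expressed, meaning that their mean normalised count over the 6 libraries was at least 10, and 6 were not. The normalised count is the number of reads of a gene divided by 1 size factor per library. No measured difference between the groups entered the choice of members, but the list was drawn up with earlier results of these data known.

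The cells were biliary epithelial cells from the intrahepatic bile duct of adult C57BL/6 mice. All mice had 1 week of DDC (3,5-diethoxycarbonyl-1,4-dihydrocollidine), which injures bile ducts, and both groups carried floxed Klf5 on both alleles. The 3 Klf5 LKO libraries (Alfp-CreTg/+;Klf5flox/flox) also carried the Alfp-Cre transgene, and the 3 control libraries (Alfp-Cre+/+;Klf5flox/flox) did not. Alfp-Cre uses albumin and alpha-fetoprotein regulatory sequences, so hepatocytes of the same livers can lose Klf5 as well, and an effect of Cre cannot be told apart from loss of Klf5. No uninjured group is part of the comparison. Whether each library is its own animal is not stated in the labels, and the spread behind every p-value is that between libraries, which may be technical.

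Chemokines are small secreted proteins that bind receptors on leukocytes and draw them towards the source. Injured bile duct epithelium is known to make them, together with cytokines such as LIF and CSF1 and the adhesion molecules ICAM-1 and VCAM-1, and this is one way in which a ductular reaction gathers inflammatory cells. Many of these genes are induced through NF-κB, which is switched on by the IL-1 and Toll-like receptors, while receptors that contain gp130 (Il6st) signal through STAT3.

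Total reads ranged from 17161087 to 24784167 in Klf5 LKO and from 11726934 to 20066745 in control. Klf5 itself had normalised counts of 2056, 2018 and 2316 in control, against 977, 1192 and 1183 in Klf5 LKO (log2 fold change -0.93, limma adjusted p = 0.0103). Reads from exons outside any deleted part may be counted as well. Reads were not examined by exon, so the source of the Klf5 counts left in Klf5 LKO was not tested. When control 1, 2 or 3 was left out the log2 fold change was -0.96, -0.97 and -0.87, with adjusted p = 0.0625, 0.0681 and 0.0540, and DESeq2 on all libraries gave adjusted p = 3.39e-07. All 10 biliary markers examined passed the level of 10, and they summed to 373855 to 440951 in Klf5 LKO and to 435054 to 550578 in control. Their means were lower in Klf5 LKO for 7 of the 10, and the groups did not overlap in 5, with 2 higher and 3 lower. By limma 1 was called, Sctr, which was higher in Klf5 LKO, and DESeq2 called 2 higher and 2 lower. No marker reached a mean of 10 among 9 of neutrophils and 11 of lymphocytes and NK cells. Their summed normalised counts were 3.29 to 19.2 in Klf5 LKO, against 3.05 to 15.8 in control for neutrophils, and 8.20 to 21.3 and 4.06 to 68.1 for lymphocytes and NK cells. The Kupffer cell genes Clec4f, Cd5l and Vsig4 had 0 reads in every library, and the 12 Kupffer and macrophage markers summed to 167 to 396 in Klf5 LKO, against 122 to 353 in control. The 10 stellate and fibroblast markers summed to 9191 to 11480 in Klf5 LKO, against 6929 to 7006 in control, nearly all of it Rgs5, while Lrat, Des, Col3a1 and Thy1 had 0 reads. The 10 hepatocyte markers summed to 12283 to 16321 in Klf5 LKO, against 12852 to 17306 in control. General leukocyte transcripts differed between libraries. A score over 9 of them, the mean of log2(value + 1), was 8.26, 7.19 and 4.32 in control 1, 2 and 3 against 6.84, 4.22 and 4.42 in Klf5 LKO 1, 2 and 3, and the 9 genes summed to 609 to 3633 and to 398 to 2057. Beyond a fit with this score as a term, the part of other cell types' transcripts in the differences below was not tested. In bulk RNA, fewer cells of a type and less RNA per cell cannot be told apart.

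None of the 38 expressed members passed the test across all genes (limma on log2(value + 1), Benjamini-Hochberg adjusted p under 0.05), against 0.652% of the 13490 genes tested (0.163% higher and 0.489% lower in Klf5 LKO). At an unadjusted p under 0.05 there were 12 members, 8 higher and 4 lower in Klf5 LKO, against 10.9% of all genes tested (4.95% higher and 5.92% lower). On the recovered reads, edgeR and limma-voom also called 0 members, while DESeq2 called 3, all higher in Klf5 LKO, against 2.48% of all genes with that tool (0.882% higher and 1.6% lower). They were Csf1, Ccl5 and Lif. In the authors' deposited table the adjusted p was likewise under 0.05 for 3 members, against 2.41% of the 13184 genes that have one. The values of the 2 groups did not overlap in 14 of the 38 members, 8 higher and 6 lower in Klf5 LKO, against 15.6% of all tested genes (7.72% higher and 7.88% lower). The median log2 fold change was -0.05 over the 38 members and -0.01 over all tested genes. The 8 higher were Csf1, Il34, Lif, Il23a, Ccl5, Cxcl10, Cxcl17 and Icam1, and the 6 lower were Cxcl3, Ccl9, Ccl25, Il33, Il4ra and Vcam1.

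**Figure D1:**
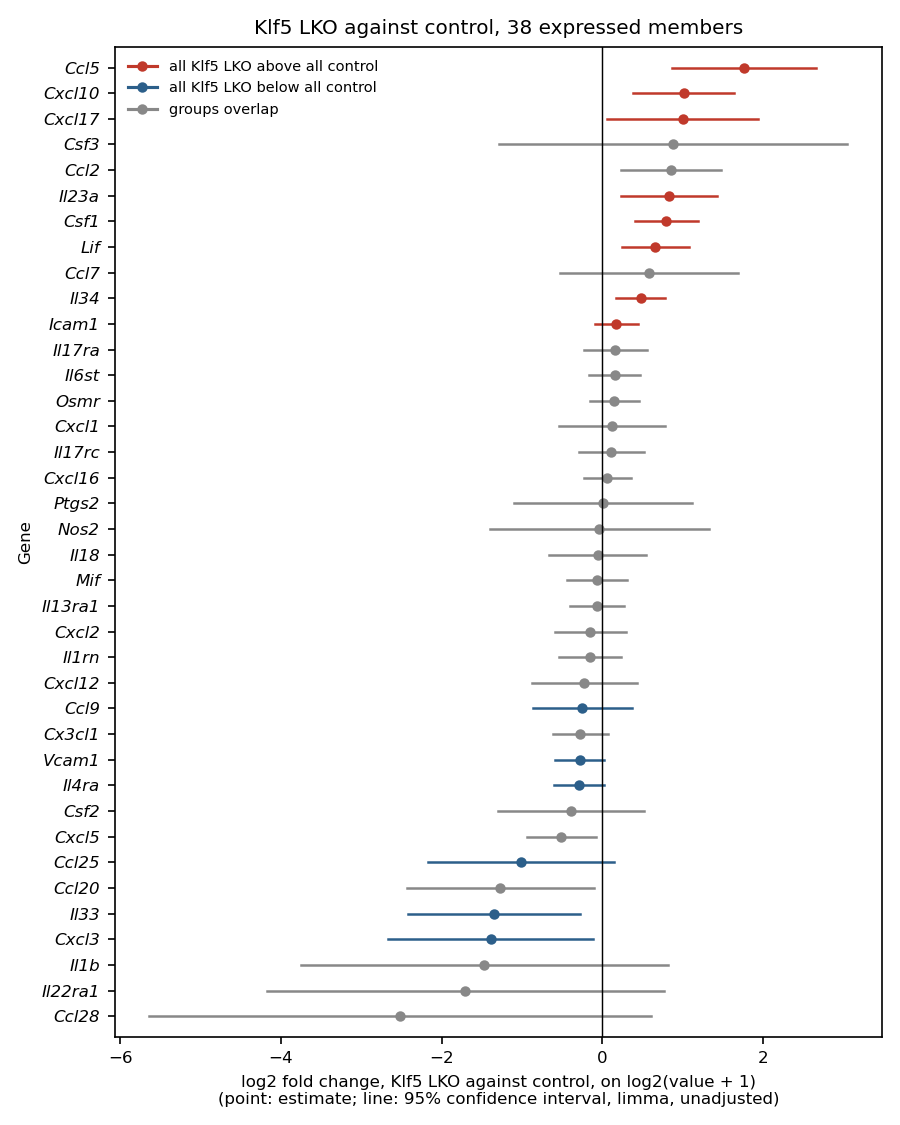
The log2 fold change of Klf5 LKO against control for each of the 38 expressed members, with its unadjusted 95% confidence interval from limma. Red marks the 8 members whose 3 Klf5 LKO libraries all lay above all 3 control libraries, blue the 6 that lay below, and grey the rest. The interval is narrow for the abundant gene Icam1 (-0.09 to 0.44) and wide for the low gene Ccl28. Abundance alone does not set the width, since that of the abundant gene Ccl2 runs from 0.24 to 1.48.

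RefSeq promoter windows (GRCm38.p6, 250 bases before to 50 after the annotated start) were matched by symbol for 30 of the 44 members. Shown first are the windows of Csf1, Lif and Cxcl10, the members with a window that had the largest fold among those whose Klf5 LKO libraries all lay above control. Only the 250 bases before the start are printed, read 5′ to 3′ on the gene's strand. Capitals mark matches to the NF-κB consensus, searched on both strands. They cover chr3:107760470-107760719 (minus strand), chr11:4257318-4257567 (plus strand) and chr5:92348890-92349139 (minus strand).
Csf1: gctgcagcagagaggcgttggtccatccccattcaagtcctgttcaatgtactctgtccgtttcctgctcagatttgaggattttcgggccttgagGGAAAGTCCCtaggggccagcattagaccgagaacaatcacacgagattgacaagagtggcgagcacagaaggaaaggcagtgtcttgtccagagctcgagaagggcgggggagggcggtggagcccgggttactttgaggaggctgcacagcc
Lif: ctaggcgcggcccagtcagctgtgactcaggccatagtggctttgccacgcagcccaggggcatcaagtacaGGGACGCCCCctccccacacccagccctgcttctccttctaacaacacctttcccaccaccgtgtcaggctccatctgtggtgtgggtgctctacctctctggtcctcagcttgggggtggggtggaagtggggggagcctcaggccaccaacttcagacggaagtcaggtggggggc
Cxcl10: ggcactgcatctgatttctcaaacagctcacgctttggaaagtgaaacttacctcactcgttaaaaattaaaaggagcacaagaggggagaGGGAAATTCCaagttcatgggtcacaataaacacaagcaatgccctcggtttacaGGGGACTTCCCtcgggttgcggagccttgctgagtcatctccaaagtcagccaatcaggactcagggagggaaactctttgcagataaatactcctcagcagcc

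The next set is Cxcl1, Cxcl2 and Cxcl3, neighbouring genes on chromosome 5 that code for closely related neutrophil attractants and whose values are given below. The same stretch before the start is shown, at chr5:90890995-90891244, chr5:90903649-90903898 and chr5:90785851-90786100, all on the plus strand.
Cxcl1: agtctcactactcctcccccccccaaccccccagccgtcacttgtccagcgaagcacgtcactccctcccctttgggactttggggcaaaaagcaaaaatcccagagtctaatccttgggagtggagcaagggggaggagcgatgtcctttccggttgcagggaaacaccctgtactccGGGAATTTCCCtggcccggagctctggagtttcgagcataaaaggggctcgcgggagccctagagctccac
Cxcl2: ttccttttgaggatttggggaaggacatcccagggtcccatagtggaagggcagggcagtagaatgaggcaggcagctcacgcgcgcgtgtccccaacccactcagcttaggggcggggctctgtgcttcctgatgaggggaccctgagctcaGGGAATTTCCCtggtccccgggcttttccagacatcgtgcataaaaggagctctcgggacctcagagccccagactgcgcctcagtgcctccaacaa
Cxcl3: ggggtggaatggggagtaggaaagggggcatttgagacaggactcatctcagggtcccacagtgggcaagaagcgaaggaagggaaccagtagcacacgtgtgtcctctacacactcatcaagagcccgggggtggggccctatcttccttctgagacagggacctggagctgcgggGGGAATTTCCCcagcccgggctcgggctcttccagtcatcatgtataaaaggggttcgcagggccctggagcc

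The same capital stretch, GGGAATTTCCC, stands in all 3 of these windows and holds 2 overlapping matches. It begins 71 bases before the RefSeq start in Cxcl1, 97 before it in Cxcl2 and 73 before it in Cxcl3. GENCODE M21 begins Cxcl2 at 90903871, Cxcl1 at 90891241 and Lif at 4257557, each inside its printed stretch. Distances to the start therefore depend on the annotation. Cxcl10 has 3 matches, 2 of them overlapping, and Csf1 and Lif have 1 each. The NF-κB consensus was present in 10 of the 26 windows of expressed members (38.5%) and in 8.46% of all 32851 windows. These 10 include Il4ra, whose match lies after the start, and Il22ra1. For Il22ra1, Icam1, Il18, Mif and Csf2 the bases after the start were not found in a GENCODE M21 transcript of the gene. The letters CACCC, the core of the boxes to which Krüppel-like factors bind, were present on either strand in 17 of the 26 (65.4%) and in 57.5% of all windows. Lif has 5 such matches, of which 1 lies after the start and is not printed, and Csf1 and Cxcl10 have 0. GGGCGG was present in 15 of the 26 (57.7%) and in 35.7% of all windows. A match describes the letters and is not a measured binding site.

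Per length of exon, the most abundant member was Ccl2, with 7300.4 normalised counts per kilobase over the 6 libraries. Vcam1 (3612 per kilobase), Mif (3357), Il1rn (2796), Cxcl5 (2298), Cxcl16 (2154) and Cxcl1 (1655) followed. At the other end, Ccl28, Ccl25, Il22ra1 and Csf3 had between 4.45 and 7.60 per kilobase. All 44 members together took 0.466% to 0.607% of the signal of a library.

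**Figure D2:**
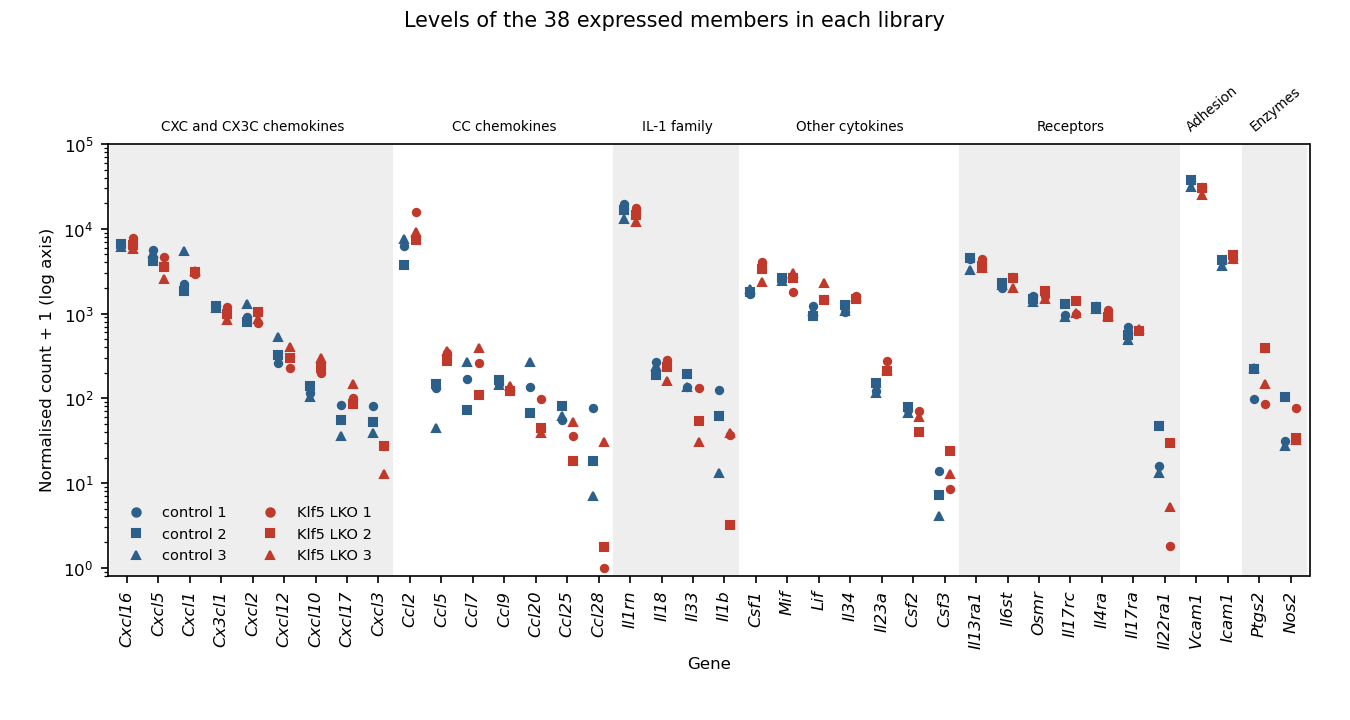
Normalised count plus 1 (log axis) of each expressed member in each of the 6 libraries, grouped by role, with control in blue and Klf5 LKO in red. Vcam1, Il1rn and Ccl2 are the highest by count, and the libraries of Ccl28, Il1b and Il22ra1 spread over more than 10-fold.

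Csf1 and Il34 code for the 2 ligands of the CSF1 receptor, which supports the survival and growth of macrophages. Csf1 (chromosome 3, 107741048 to 107760469, minus strand, mm10) had normalised counts of 1688, 1781 and 1969 in control, against 4043, 3309.7 and 2332 in Klf5 LKO. Every Klf5 LKO library was above every control library, with Klf5 LKO 3 the nearest to control. The means were 1813 ± 143 and 3228 ± 859 (SD, n = 3 each). This is 1.78-fold, or 0.80 on the log2 scale (SE 0.18, 95% confidence interval 0.40 to 1.19, limma adjusted p = 0.0841). Here and below, folds are ratios of the group means, while log2 fold changes are fitted to log2(value + 1). DESeq2 called Csf1 (adjusted p = 0.000677), as did limma at a mean of at least 50 (0.0478) and without Klf5 LKO 3 (0.0213, log2 fold change 1.02). In the authors' deposited table its log2 fold change was 0.70 and its adjusted p 0.000903, while the DESeq2 log2 fold change here was 0.83.

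Il34 (chromosome 8, 110741829 to 110805924, minus strand) had 1028, 1268 and 1075 in control, against 1619, 1478 and 1584 in Klf5 LKO, and these did not overlap either. Its log2 fold change was 0.48 (SE 0.14, 95% confidence interval 0.17 to 0.78, limma adjusted p = 0.192), or 1.39-fold. Leaving out any 1 library kept the value between 0.42 and 0.57. The shared receptor, Csf1r, had 1262, 1547 and 1248 in control, against 868, 1455 and 1297 in Klf5 LKO, so that the groups overlapped (adjusted p = 0.785).

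Lif, an IL-6 family cytokine, (chromosome 11, 4257557 to 4272514, plus strand) had 1218, 945 and 1076 in control, against 1479, 1426 and 2314 in Klf5 LKO. The groups did not overlap, and Klf5 LKO 3 was the highest library. The log2 fold change was 0.66 (SE 0.19, 95% confidence interval 0.24 to 1.08, limma adjusted p = 0.189), or 1.61-fold, and 0.44 without Klf5 LKO 3. DESeq2 gave adjusted p = 0.0322, and the adjusted p in the authors' deposited table was 0.0355. Il23a, which codes for the p19 chain of IL-23, had 122, 152 and 116 in control, against 277, 207 and 213 in Klf5 LKO. It was 1.79-fold higher with no overlap (log2 fold change 0.83, SE 0.27, adjusted p = 0.266).

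**Figure D3:**
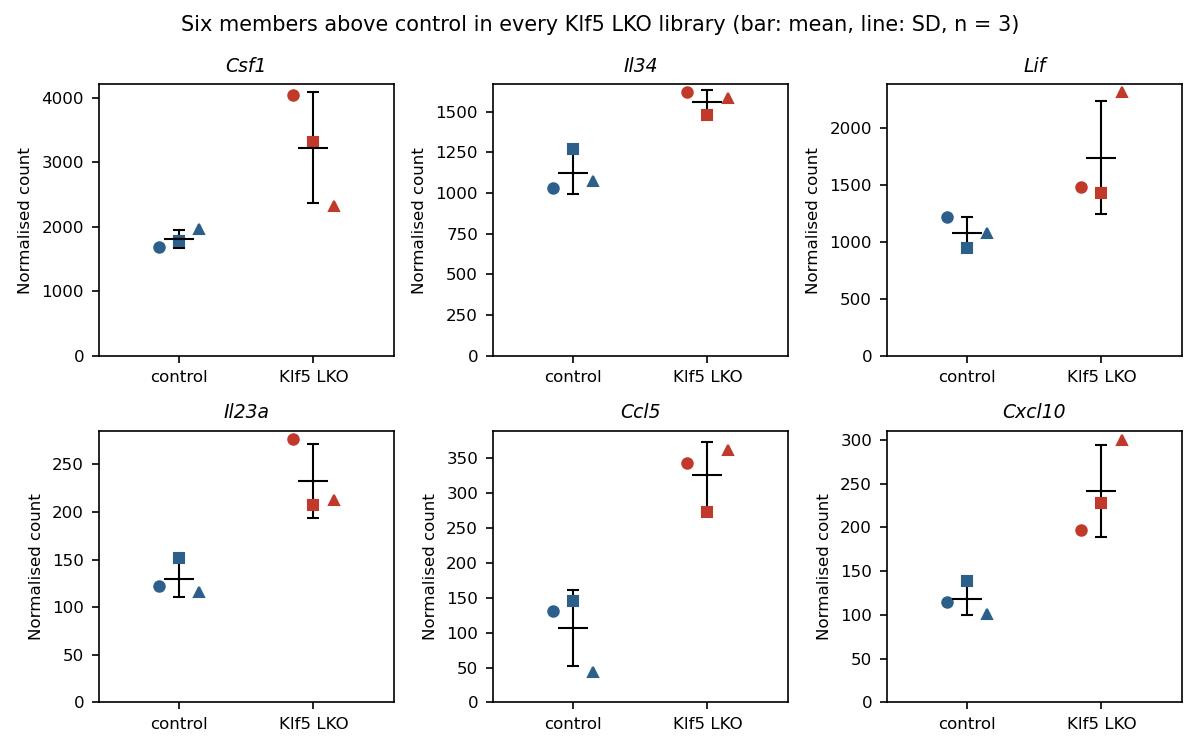
Normalised counts of Csf1, Il34, Lif, Il23a, Ccl5 and Cxcl10 in the 3 control and 3 Klf5 LKO libraries. Points are libraries (circle, square and triangle for 1, 2 and 3), the horizontal bar is the mean and the vertical line the SD, and the lowest Klf5 LKO value lies above the highest control value in each panel.

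Of the other cytokines, Mif, an abundant cytokine with many cell sources, had 2599, 2603 and 2389.7 in control, against 1804, 2633 and 2979 in Klf5 LKO. The groups overlapped, and the confidence interval of its log2 fold change ran from -0.44 to 0.31. Csf2, which codes for GM-CSF, had means of 72.0 ± 5.72 in control, against 56.2 ± 15.7 in Klf5 LKO (SD, n = 3 each). Csf3, which codes for G-CSF, stood just inside the expressed level, with 21 reads in control, against 51 in Klf5 LKO in all. The highest member below that level was Cxcl14, with a mean normalised count of 3.92 and 10 reads in control, against 14 in Klf5 LKO. Il6 had 0 reads in every library, which allows a normalised count of up to 2.24 in the deepest library and 4.74 in the shallowest. Tslp had 9 reads, all in Klf5 LKO 3.

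The chemokines Ccl5 and Cxcl10 are both induced by interferon and act mainly on T cells and NK cells. Ccl5 (chromosome 11, 83525778 to 83530518, minus strand) had 131, 145 and 43.7 in control, against 343, 273 and 361 in Klf5 LKO. All 3 Klf5 LKO libraries were above all 3 control libraries, and control 3 was well under the other control libraries. The means were 107 ± 54.9 and 326 ± 46.7 (SD, n = 3 each). This is 3.06-fold, or 1.77 on the log2 scale (SE 0.41, 95% confidence interval 0.87 to 2.67, limma adjusted p = 0.0935). DESeq2 called Ccl5 (adjusted p = 0.00476), and so did limma with the leukocyte score as a term (0.0281, log2 fold change 2.21). The authors' deposited table gave 0.86 as its log2 fold change and 0.00492 as its adjusted p, while the DESeq2 log2 fold change here was 1.62. The deposited value is smaller at nearly the same adjusted p, so it is not on the same scale as the other fold changes given here. Without control 3 the limma log2 fold change was 1.22 (adjusted p = 0.127). T cells and NK cells also make Ccl5. The 11 lymphocyte and NK markers, of which 3 had no read in any library, summed to 8.20 to 21.3 in Klf5 LKO and to 4.06 to 68.1 in control, and their part in the Ccl5 difference was not tested.

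Cxcl10 (chromosome 5, 92346638 to 92348889, minus strand) had 115, 139 and 102 in control, against 197, 228 and 300.3 in Klf5 LKO. The groups did not overlap, and the log2 fold change was 1.01 (SE 0.29, 95% confidence interval 0.39 to 1.64, limma adjusted p = 0.172) or 2.04-fold, with adjusted p = 0.0719 in DESeq2. The related ligands of the same receptor, Cxcl9 and Cxcl11, were not expressed, with 7 reads and 1 read over all 6 libraries. Their receptor gene Cxcr3 did not reach a mean of 10.

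The neutrophil attractants Cxcl1, Cxcl2, Cxcl3 and Cxcl5 share the receptor CXCR2. Cxcl5 (chromosome 5, 90759360 to 90761624, plus strand) had 5585, 4206 and 5149 in control, against 4684, 3537 and 2531 in Klf5 LKO. Klf5 LKO 1 lay within the control range and the others below it, and the log2 fold change was -0.51 (95% confidence interval -0.94 to -0.08, limma adjusted p = 0.360). Cxcl3 was much lower in level and did not overlap, with 80.9, 52.2 and 37.6 in control, against 26.3, 26.1 and 11.7 in Klf5 LKO (log2 fold change -1.39, SE 0.59, adjusted p = 0.414). It rests on 158 reads in control, against 78 in Klf5 LKO.

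Cxcl1 had 2224, 1835 and 5400.1 in control, against 2937, 3064 and 3159 in Klf5 LKO. The Klf5 LKO libraries were close to each other, and lay above control 1 and 2 and below control 3. Its log2 fold change was 0.12 (95% confidence interval -0.53 to 0.78), and went to 0.60 without control 3 and to -0.05 with DESeq2 or edgeR, so no direction can be given. Cxcl2 had 905, 793 and 1303 in control, against 764, 1052 and 857 in Klf5 LKO, also highest in control 3. The receptor gene Cxcr2 had 206 ± 12.0 in control, against 223 ± 33.3 in Klf5 LKO (SD, n = 3 each).

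Monocytes are drawn in through CCR2, whose ligands include Ccl2 and Ccl7, neighbouring genes on chromosome 11. Ccl2 (82035571 to 82037453, plus strand) had 6256, 3689 and 7669 in control, against 15777, 7280.4 and 9176 in Klf5 LKO. Klf5 LKO 1 stood far above the rest, and Klf5 LKO 2 was below control 3. The log2 fold change was 0.86 (SE 0.29, 95% confidence interval 0.24 to 1.48, limma adjusted p = 0.268) or 1.83-fold, but 0.54 without Klf5 LKO 1 and 0.56 without control 2. Ccl7 had 167, 72.7 and 267 in control, against 260.5, 109.6 and 389 in Klf5 LKO (log2 fold change 0.59, SE 0.51, adjusted p = 0.733). In both genes library 2 was the lowest of each group. With the library number as a term, limma gave adjusted p = 0.0633 for Ccl2 and 0.431 for Ccl7. Whether these numbers pair the libraries was not settled. Ccr2 itself had 233, 45.8 and 15.2 in control, against 173, 0 and 1.06 in Klf5 LKO, highest in control 1 and Klf5 LKO 1, the libraries with the highest leukocyte score of their groups.

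**Figure D4:**
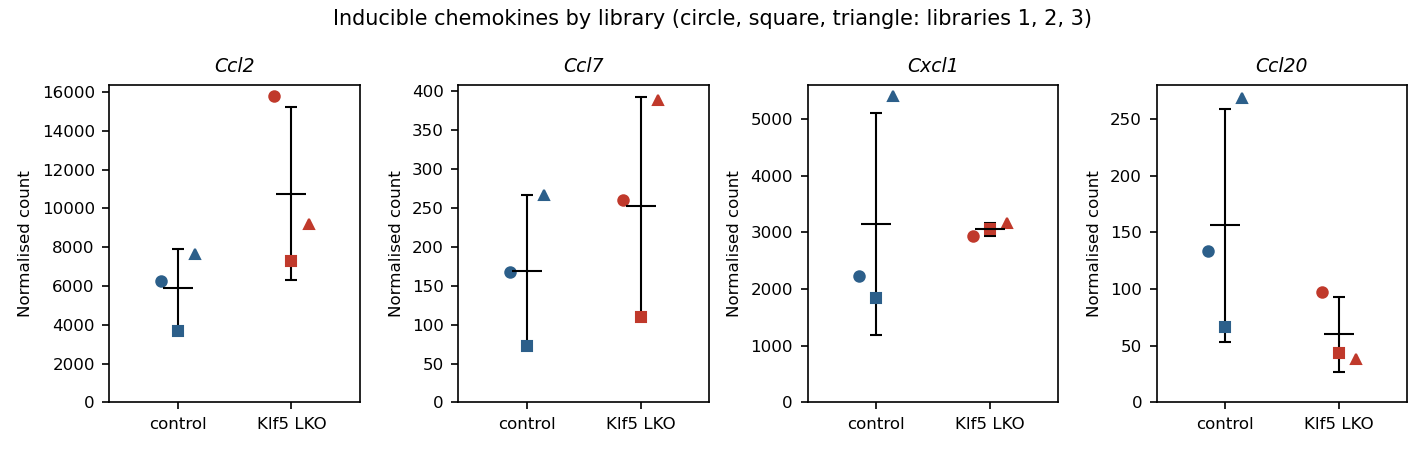
Normalised counts of Ccl2, Ccl7, Cxcl1 and Ccl20 by library, with control in blue and Klf5 LKO in red (circle, square and triangle for libraries 1, 2 and 3, bar for the mean and line for the SD). The 2 groups overlap in each panel, and control 3 is the highest control library for all 4 genes.

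Ccl20, which attracts CCR6-bearing lymphocytes and dendritic cells, had 133, 66.4 and 268 in control, against 97.8, 43.97 and 38.3 in Klf5 LKO. The groups overlapped through Klf5 LKO 1, and the log2 fold change was -1.27 (SE 0.53, limma adjusted p = 0.412). Ccl25, known as a chemokine of thymus and small intestine, was lower with no overlap, at 54.3, 80.6 and 59.9 in control, against 34.5, 17.1 and 51.1 in Klf5 LKO (adjusted p = 0.533). Ccl9 had 149.8 ± 11.5 in control, against 126 ± 11.5 in Klf5 LKO (SD, n = 3 each), with no overlap but a gap of less than 1 SD between the nearest libraries (adjusted p = 0.816). Ccl28, a mucosal chemokine, spread from 6.10 to 75.4 in control and from 0 to 29.8 in Klf5 LKO.

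Cxcl16 and Cx3cl1 code for the chemokines made as membrane-bound proteins, which can hold cells as well as attract them. Cxcl16 had 6220.1, 6651 and 6135 in control, against 7837, 6436 and 5763 in Klf5 LKO. The control values lay inside the Klf5 LKO range, and the confidence interval of the log2 fold change ran from -0.22 to 0.35. Cx3cl1 had 1221, 1236 and 1145 in control, against 1197, 979 and 839 in Klf5 LKO (log2 fold change -0.27, 95% confidence interval -0.62 to 0.08, limma adjusted p = 0.591). Cxcl12, the ligand of CXCR4, overlapped between groups, with means of 369 ± 143 and 310.1 ± 88.8 (SD, n = 3 each) and its highest value in control 3. Cxcl17, a mucosal chemokine, had 81.8, 53.7 and 34.5 in control, against 101, 85.0 and 146 in Klf5 LKO, without overlap (log2 fold change 1.00, SE 0.43, adjusted p = 0.429).

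In the IL-1 family, the receptor antagonist Il1rn was far more abundant than the agonists. Il1rn (chromosome 2, 24336853 to 24351494, plus strand) had 19593, 16459 and 12875 in control, against 17509.7, 14533 and 11897 in Klf5 LKO. The groups overlapped, and the confidence interval of the log2 fold change ran from -0.54 to 0.23. Per kilobase of exon, Il1rn had 2796 over the 6 libraries and Il1b 23.8, while Il1a was not expressed, with 15 reads in all.

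Il1b, a cytokine made chiefly by myeloid cells, had 123, 60.1 and 12.2 in control, against 36.2, 2.24 and 38.3 in Klf5 LKO. Within control it was ordered like the leukocyte score (8.26, 7.19 and 4.32). It was not in Klf5 LKO, where it was highest in library 3, with a score of 4.42 against 6.84 in library 1. Its log2 fold change was -1.47 (SE 1.05, adjusted p = 0.666), or -0.33 with the score as a term. Without Klf5 LKO 2 it was -0.28. The part of leukocyte transcripts in this difference was otherwise not tested. Il33, an alarmin held in the nucleus, had 136, 191 and 136 in control, against 131, 52.9 and 29.8 in Klf5 LKO. The groups did not overlap, although Klf5 LKO 1 was close to control. Its log2 fold change was -1.35 (SE 0.49, 95% confidence interval -2.42 to -0.28, limma adjusted p = 0.318), -1.91 without Klf5 LKO 1 and -0.86 without Klf5 LKO 3. Il18 had 229 ± 39.4 in control, against 224 ± 59.3 in Klf5 LKO (SD, n = 3 each).

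**Figure D5:**
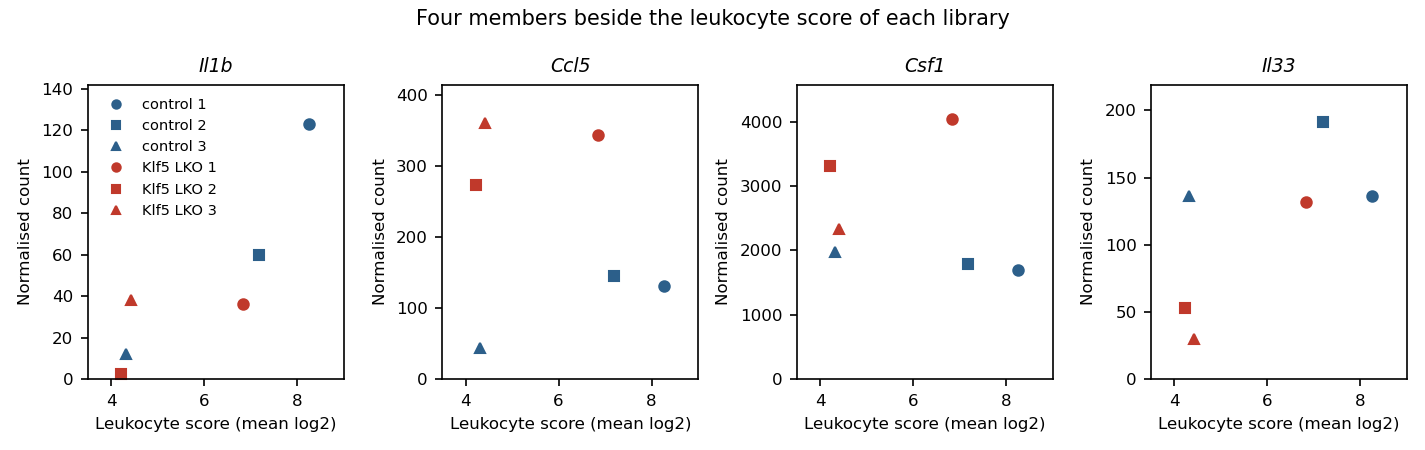
Normalised counts of Il1b, Ccl5, Csf1 and Il33 against the leukocyte score (mean log2 over 9 genes) of the same library, with control in blue and Klf5 LKO in red. Il1b is highest in control 1, the library with the highest score. The Ccl5 and Csf1 values of Klf5 LKO lie above all control values, but no Klf5 LKO library has a score as high as control 1 or control 2.

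The adhesion molecules are the integrin ligands that leukocytes grip. Vcam1 (chromosome 3, 116109949 to 116129688, minus strand) had 36318, 37952 and 31062 in control, against 31012, 30632 and 25266 in Klf5 LKO. The groups did not overlap, but the highest Klf5 LKO and the lowest control library were nearly equal, and the log2 fold change was -0.28 (95% confidence interval -0.58 to 0.03, limma adjusted p = 0.517). Icam1 (chromosome 9, 21015985 to 21028817, plus strand) had 4192, 4318 and 3616 in control, against 4370.2, 4908 and 4379 in Klf5 LKO (log2 fold change 0.17, 95% confidence interval -0.09 to 0.44, adjusted p = 0.657). Vcam1 is also an endothelial gene. The 10 endothelial markers examined summed to 166 to 276 in Klf5 LKO, against 160.0 to 545 in control, and their part in the Vcam1 values was not tested.

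Of the 7 cytokine receptor members, all were expressed and only Il4ra did not overlap between groups. Il6st, the gp130 chain shared by the receptors for IL-6, LIF and oncostatin M, had 2018, 2288 and 2173 in control, against 2666, 2613 and 1980.4 in Klf5 LKO. Its partner Osmr had 1588, 1486 and 1375 in control, against 1626, 1840.0 and 1488 in Klf5 LKO. Both overlapped, and the confidence intervals of their log2 fold changes were -0.16 to 0.47 and -0.15 to 0.45. Lifr, the receptor chain for LIF, had 1938, 1860.2 and 1733 in control, against 4320.1, 1817 and 1783 in Klf5 LKO, so that Klf5 LKO 1 alone stood apart. Il6ra, which binds IL-6 itself, was low, at 23.7 ± 14.7 and 42.4 ± 15.7 (SD, n = 3 each).

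Il13ra1 and Il4ra form the receptor through which epithelium answers IL-4 and IL-13. Il4ra had 1218, 1203 and 1136 in control, against 1100.2, 897 and 926 in Klf5 LKO, a small difference without overlap (log2 fold change -0.29, SE 0.14, 95% confidence interval -0.60 to 0.03, limma adjusted p = 0.517). Il13ra1 overlapped, with means of 4026 ± 671 and 3829.7 ± 521 (SD, n = 3 each). The IL-17 receptor chains Il17ra and Il17rc had confidence intervals of -0.23 to 0.56 and -0.29 to 0.52. Il22ra1, the specific chain of the IL-22 receptor, was near the limit of expression, with 57 reads in control, against 43 in Klf5 LKO.

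Of the inflammatory enzymes, Ptgs2, the inducible cyclooxygenase, had 96.6, 219.7 and 229 in control, against 85.4, 395 and 148 in Klf5 LKO. Nos2, the inducible nitric oxide synthase, had 30.3, 103 and 26.4 in control, against 75.6, 32.8 and 30.9 in Klf5 LKO. Single libraries set the spread of both, and their confidence intervals, -1.09 to 1.12 and -1.40 to 1.33 on the log2 scale, hold differences of more than 2-fold either way.

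Around these members, 107 other genes of the same pathways were examined, of which 79 were expressed and 0 were called by limma, against 0.652% of all genes (5 had an unadjusted p under 0.05, against 10.9% of all genes, and edgeR and limma-voom also called 0). DESeq2 called 2, both lower in Klf5 LKO, Cd44 and Csf2rb, against 2.48% of all genes. Their median log2 fold change was 0.03, and 9 of the 79 (11.4%) did not overlap between groups, against 15.6% of all tested genes. Among 16 NF-κB genes, all expressed, 13 had a log2 fold change above 0 and 3 below. The list median was 0.17, against -0.01 over all tested genes. The groups did not overlap in 2 of the 16 (12.5%), against 15.6% of all tested genes, and 1 had a limma unadjusted p under 0.05. The inhibitor Nfkbia had 7714, 7735 and 11601 in control, against 11564, 10505 and 11443 in Klf5 LKO, and Rela and Nfkbiz had means of 4766 and 4064 in control, against 5338 and 4366 in Klf5 LKO. As in Cxcl1 and Ccl20, control 3 was the highest control library for Nfkbia and Nfkbiz. Rel, chosen after its values were seen, had the smallest adjusted p of the 79 (0.156), with 40.5, 20.5 and 22.4 in control, against 113, 107 and 66.0 in Klf5 LKO. Rel codes for the c-Rel subunit of NF-κB and is best known from lymphoid cells.

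Of 15 IL-1 and Toll-like receptor pathway genes, 14 were expressed and 0 called, with 5 higher and 9 lower in Klf5 LKO and a median log2 fold change of -0.10. Il1r1, the IL-1 receptor, had means of 2368 and 2079.9 in control and Klf5 LKO, the kinase Irak1 2007 and 1958, and the adaptor Traf6 1574 and 1629.8. Of 13 genes of the gp130 pathway, 12 were expressed and 0 called, with means of 6353 and 5836 for the kinase Jak1, 4765 and 4965 for Stat3, and 2215 and 2592 for the cytokine Clcf1. For the IL-4, IL-17 and IL-22 partners, 8 of 11 were expressed and 0 called, and Stat6, Il10rb and Il17re had 2677 and 2723, 1827 and 2154, and 1404 and 1255. In each pair the control mean is given first.

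Among 17 partners of the ligands, 16 were expressed and 0 called. Cd44, a surface receptor for hyaluronan and a co-receptor for MIF, had 9745, 11329 and 9921 in control, against 7006, 8707 and 7662 in Klf5 LKO, with no overlap (log2 fold change -0.41, SE 0.13, limma adjusted p = 0.220, DESeq2 adjusted p = 0.0461). Cd74, the MIF receptor chain, was ordered like the leukocyte score within each group. It had 24233, 14148 and 4357 in control, against 18924, 7572 and 9091 in Klf5 LKO. Itgb1, the beta chain that pairs with alpha-4 to bind VCAM-1, had means of 16049 and 15132. Csf2rb, the shared beta chain of the GM-CSF receptor and named because DESeq2 called it, had 178, 101 and 17.3 in control, against 4.93, 5.96 and 27.7 in Klf5 LKO (limma adjusted p = 0.271, DESeq2 adjusted p = 0.0222), and the groups overlapped. It is a gene of myeloid cells, and its log2 fold change was -2.71, or -2.13 with the leukocyte score as a term. Of 21 chemokine receptors only 4 were expressed, Cxcr2, Cxcr5, Ccr1 and Ccr2, and 0 were called. Ccr1, the receptor for Ccl5, Ccl7 and Ccl9, had 77.2, 103 and 11.2 in control, against 83.0, 1.49 and 29.8 in Klf5 LKO. Of 14 prostaglandin, nitric oxide and arginine genes, 9 were expressed and 0 called. Ptges3, Ptges2 and Hpgd, which make and break down prostaglandin E, had means of 4036, 1208 and 532 in control, against 3669, 1313 and 483 in Klf5 LKO.

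With 1 library left out, between 16 and 19 of the 38 members did not overlap between groups, and the share among all tested genes was between 23.0% and 29.7%. A gene without overlap stays so when a library is left out. These figures therefore cannot fall below those with all libraries, and do not show how stable the separation is.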

How the data were processed

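Single-end libraries from 4 ng of total RNA were made with a low-input cDNA kit and 2 rounds of PCR, per the labels' protocols, so reads are not independent molecules. The submitters' processing notes name TopHat, Bowtie2, DESeq2 and the build mm10. How reads were assigned to genes is not given in the sources used here. The authors deposited a signal per gene and library, a read count divided by 1 size factor. Whole reads were recovered for 100% of values (tolerance 0.001). The authors' deposited table also gave log2 fold changes and adjusted p-values.

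Groups came from the sample titles, and no library was left out. The main test was limma 3.58.1 in R 4.3.3 (eBayes with trend) on log2(value + 1), two-sided, for genes with a mean of at least 10, with Benjamini-Hochberg adjustment over all of them and no replicate term. This follows the design for normalised values, which foresaw edgeR for raw counts. A larger pseudocount makes changes of low genes smaller, with -2.96, -2.51 and -1.44 for Ccl28 at 0.5, 1 and 5. Low genes are still not always understated beside DESeq2, which gave -1.72 for Ccl28 and -1.10 for Il22ra1 (main test -1.70). For Cxcl3 it gave -1.41, against -1.39 in the main test. Intervals and the limit of 3 reads for a count of 0 cover counting error or library spread only. Alternatives were edgeR 4.0.16, DESeq2 1.42.0 and limma-voom on the recovered reads, with the authors' size factors, 2 scalings, 2 filters, pseudocounts of 0.5 and 5, a replicate block, a leukocyte term and leaving out each library. The test was also run on simulated counts, drawn independently for each gene and library. These held no leukocyte or single-library differences like those seen here, so the run cannot show how the test behaves with them. Positions and exon lengths were read from GENCODE M21 (GRCm38, which mm10 names too), and promoters from the RefSeq table for GRCm38.p6.

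Named genes are the 44 members, members with a mean of at least 100 singly, and in each pathway list the called genes or else the 3 most abundant. The members, the lists and the tests were chosen with earlier results of these data known. Csf1r, Lifr, Il6ra, Rel, Csf2rb and single markers were added after their values were seen.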

Additional observations from a re-analysis of the deposited data

How the results depend on the processing

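The number of members called was 0 in the main test and under TMM or upper quartile scaling, no filter, pseudocounts of 0.5 or 5, edgeR, limma-voom and the replicate block. It was 3 with DESeq2, 1 at a mean of at least 50 and 1 with the leukocyte term, and between 0 and 1 when 1 library was left out. Over all genes the count was 88, and 335 with DESeq2 (35.5% higher, against 25.0%), and from 14 to 105 with 1 library left out (14, 24 and 53 without control 2, 1 and 3, and 49 without Klf5 LKO 3). The replicate block gave 110 genes and 0 members. Whether numbers shared between the groups pair the libraries was not settled. The correlation of deviations was 0.185, -0.012 and 0.106 for libraries 1, 2 and 3, and between -0.198 and 0.138 for unlike numbers. Deviations were taken from the mean of 3 libraries per group, so these correlations depend on each other and cannot decide it. Of 638 comparisons of an expressed member with an alternative, 607 kept direction and side of the threshold, 6 passed it newly, all for Csf1, Ccl5 or Lif, and 25 changed sign, in 11 members. With the leukocyte term the log2 fold change was -0.24 for Cxcl1, 0.063 for Il1rn, 0.042 for Il18, 0.11 for Il13ra1, -0.53 for Ptgs2, 0.36 for Nos2, 0.075 for Ccr1, -0.0155 for Nfkbiz, -0.0612 for Traf6, 0.23 for Stat6 and 0.75 for Cd74. It was -0.048 for Cxcl1 with edgeR and -0.046 with DESeq2, 0.16 for Nos2 with limma-voom, and 0.025, 0.025 and 0.00999 for Stat6 with edgeR, DESeq2 and limma-voom. With 1 library left out, it ranged from -0.18 to 0.60 for Cxcl1, -0.30 to 0.060 for Cxcl2, -0.45 to 0.073 for Cxcl12, -0.056 to 0.17 for Cxcl16, -0.23 to 0.16 for Il18, -0.21 to 0.15 for Mif, -0.21 to 0.014 for Il13ra1, -0.047 to 0.27 for Il17rc, -0.59 to 0.51 for Ptgs2 and -0.44 to 0.57 for Nos2. For other pathway genes it ranged from -2.40 to 0.14 for Ccr1, -0.028 to 0.31 for Nfkbiz, -0.19 to 0.031 for Irak1, -0.15 to 0.19 for Traf6, -0.038 to 0.15 for Stat3, -0.073 to 0.35 for Clcf1, -0.26 to 0.14 for Stat6, -0.76 to 0.48 for Cd74, -0.28 to 0.070 for Hpgd, -0.34 to 0.030 for Csf1r and -0.033 to 0.60 for Lifr. The causes were not tested. Depth limits what can be said of members under a mean of 100, of which 9 were expressed.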
